A study of Mus musculus with 55 samples.

Results

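The genes described here are the nuclear genes for subunits of complexes II to V of the mitochondrial respiratory chain, measured in 3 fat depots of mice given corticosterone. They were chosen by gene symbol alone, as protein-coding genes named Sdha to Sdhd, Uqcr, Cyc1, Cox4 to Cox8 or Atp5, without the brown fat isoforms Cox7a1 and Cox8b. The rule found 45 genes of the 31933 in the count tables, with 4 in complex II, 9 in complex III, 15 in complex IV and 17 in complex V. The rule uses gene symbols and no measured values, but it was written with earlier results of these data known. Of the 45 genes, 44 passed the filter on low counts in iBAT, 43 in goWAT and 44 in scWAT. Cox7b2, which is known from testis, passed in none of the depots, and Cox6a2 did not pass in goWAT.

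The 55 libraries came from male C57BL/6NRj mice aged 10 weeks, which drank corticosterone (GC), a glucocorticoid hormone, or placebo (Ctrl) for 4 weeks and lived at 13 °C (CT) or 22 °C (RT). Areas of frozen sections were collected by laser capture microdissection from interscapular brown adipose tissue (iBAT) and from gonadal (goWAT) and subcutaneous (scWAT) white adipose tissue, and the RNA was read with SMART-Seq2, a full-length protocol for small amounts of RNA. In iBAT there were 5 GC_RT, 3 Ctrl_RT, 5 GC_CT and 5 Ctrl_CT libraries. In goWAT there were 5 GC_RT, 4 Ctrl_RT, 5 GC_CT and 5 Ctrl_CT libraries, and in scWAT 5 GC_RT, 4 Ctrl_RT, 4 GC_CT and 5 Ctrl_CT libraries. Which animal a library came from, and how areas were picked, is not in the labels, so p-values measure only the spread between libraries, which may be technical. Because each depot was deposited as a table of its own, depot and table cannot be told apart.

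Complex II, succinate dehydrogenase, passes electrons from succinate to ubiquinone, and complex III passes them on to cytochrome c. Complex IV hands them to oxygen, and complex V, ATP synthase, uses the proton gradient that complexes III and IV help to build. In brown adipocytes the uncoupling protein UCP1 lets protons return without making ATP, and brown fat of rodents is known for a dense respiratory chain with comparatively little ATP synthase. Subunit c of ATP synthase, which forms the rotating ring in the membrane, is encoded by Atp5g1, Atp5g2 and Atp5g3 with the same mature protein, and low Atp5g1 expression in brown fat is a known feature.

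The regulators NRF1, GABPA, YY1 and ESRRA are known for binding near the start sites of many respiratory chain genes, and 4 promoters are shown for members on which the results turn. RefSeq promoters of GRCm38.p6, from 250 bases before to 50 bases after a start site, were at hand for 32 of the 45 members in 35 windows. Both strands were searched for GCATGCGC (NRF1), CCGGAAG (the ETS core bound by GABPA), AAGATGGCG (YY1) and TCAAGGTCA (ESRRA). The NRF1 letters stood in the promoters of 7 of the 32 members, or 21.9%, and in 3.05% of the promoters of all 27025 genes searched. The ETS letters stood in 12 members, or 37.5%, against 9.93% of all genes. The YY1 and ESRRA letters stood in 2 members each, or 6.25%, against 1.64% and 0.466% of all genes. The members' windows held 29 matches, of which 4 pairs overlapped, and a match is a description of letters and not a binding site. Cox5a and Cox6a1 belong to complex IV, Sdhd to complex II and Atp5g3 to complex V. They lie at chr9:57520982-57521281 on the plus strand (Cox5a), and on the minus strand at chr5:115348909-115349208 (Cox6a1), chr9:50603800-50604099 (Sdhd) and chr2:73911277-73911576 (Atp5g3). The capitals below mark every match. In Cox6a1 they are a pair of overlapping NRF1 matches on opposite strands and an ETS match, in Sdhd an ETS and an ESRRA match, and in Atp5g3 an ESRRA match, while none of the 4 motifs was found in the Cox5a window.
Cox5a: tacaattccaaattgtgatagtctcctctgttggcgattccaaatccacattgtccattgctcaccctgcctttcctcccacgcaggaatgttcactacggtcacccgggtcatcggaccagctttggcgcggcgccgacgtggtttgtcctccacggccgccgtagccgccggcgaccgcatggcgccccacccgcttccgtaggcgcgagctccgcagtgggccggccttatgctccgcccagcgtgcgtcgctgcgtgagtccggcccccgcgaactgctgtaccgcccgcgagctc
Cox6a1: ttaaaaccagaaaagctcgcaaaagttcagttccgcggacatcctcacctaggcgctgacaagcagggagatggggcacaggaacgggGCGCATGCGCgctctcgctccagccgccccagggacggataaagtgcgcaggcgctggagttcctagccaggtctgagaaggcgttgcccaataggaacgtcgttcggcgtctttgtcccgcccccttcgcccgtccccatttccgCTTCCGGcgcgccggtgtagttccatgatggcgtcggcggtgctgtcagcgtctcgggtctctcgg
Sdhd: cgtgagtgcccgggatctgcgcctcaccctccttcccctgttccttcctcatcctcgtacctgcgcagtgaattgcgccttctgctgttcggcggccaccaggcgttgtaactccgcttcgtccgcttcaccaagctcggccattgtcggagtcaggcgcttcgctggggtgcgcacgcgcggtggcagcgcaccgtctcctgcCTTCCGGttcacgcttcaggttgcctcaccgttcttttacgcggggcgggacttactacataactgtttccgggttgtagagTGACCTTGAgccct
Atp5g3: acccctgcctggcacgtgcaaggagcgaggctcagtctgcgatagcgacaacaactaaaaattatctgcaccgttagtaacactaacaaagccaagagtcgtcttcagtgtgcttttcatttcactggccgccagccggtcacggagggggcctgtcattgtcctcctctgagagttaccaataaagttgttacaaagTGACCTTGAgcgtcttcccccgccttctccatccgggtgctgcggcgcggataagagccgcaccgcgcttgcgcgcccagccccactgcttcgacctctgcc

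Total counts per library lay between 14043773 and 35790654 in iBAT, between 12310822 and 53121372 in goWAT and between 8622178 and 56450653 in scWAT. Adipocyte markers (Adipoq, Plin1, Fabp4, Cidec, Pparg and Lipe) summed to at least 13900 CPM, which are counts scaled to library size, in every library. The 8 brown adipocyte markers summed to 6400 to 42800 CPM in iBAT and 16.6 to 1780 CPM in goWAT, where GC_RT replicate 1 (1230 CPM) and GC_CT replicate 1 (1780 CPM) stood apart. Macrophage markers were highest in scWAT GC_RT replicates 2 and 3, at 12700 and 8720 CPM, and muscle markers in scWAT GC_RT replicate 2, at 2630 CPM. A further library that stood apart was iBAT Ctrl_RT replicate 3, described with the sums below. In such bulk samples, fewer cells of a type and less RNA per cell cannot be told apart. Of the 45 members, 19 had no stretch of 50 bases of their principal transcript in another gene, while 6 shared at least 50% of it (Atp5g1, Atp5g2, Atp5h, Atp5l, Atp5o and Cox7c), in most cases with pseudogenes, so that their counts are less certain.

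Brown fat held the most RNA of these subunits. In the plot of summed levels, the members of the 4 complexes together made up 4.04% to 9.71% of the counts of an iBAT library, 1.32% to 2.63% of a goWAT library and 1.54% to 3.66% of a scWAT library. On the scale common to all depots, the median sums in iBAT were 67200 CPM in GC_RT, 44900 in Ctrl_RT, 96800 in GC_CT and 80600 in Ctrl_CT. The median sums in goWAT were 18300 CPM in GC_RT, 18200 in Ctrl_RT, 16900 in GC_CT and 13700 in Ctrl_CT. Those in scWAT were 14200 CPM in GC_RT, 27500 in Ctrl_RT, 18300 in GC_CT and 32200 in Ctrl_CT. No goWAT or scWAT library reached the lowest iBAT library, which had 42300 CPM. Within iBAT, Ctrl_RT replicate 3 had 144000 CPM, where the other 2 libraries of its group had 42300 and 44900 CPM.

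**Figure D1:**
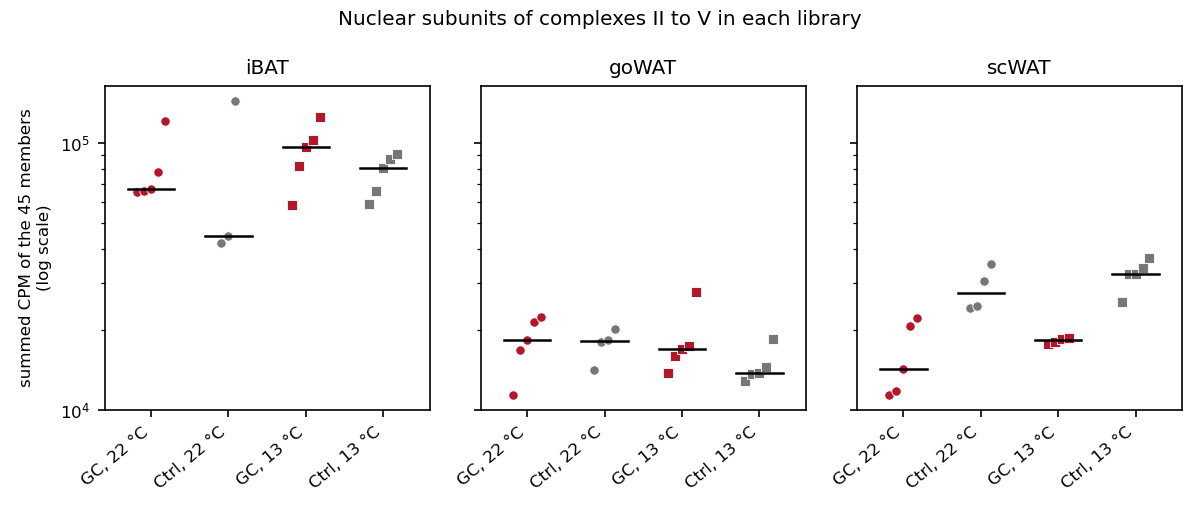
Summed CPM of the 45 members in each library (log axis), by depot and group, on a scale common to the depots; each point is a library and each line a group median. In iBAT the sums lie between 42300 and 144000 CPM, above every goWAT and scWAT library, and in scWAT every corticosterone library lies below every placebo library at the same temperature.

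Against goWAT, 42 of the 44 tested members were higher in iBAT, 1 was lower and 1 was not called, by the quasi-likelihood test of edgeR, with p adjusted over all genes after Benjamini and Hochberg, here and for every adjusted p below. Over all genes, 57.4% were called in this comparison. The median difference of the members was 2.39 on the log2 scale, against -0.20 over all genes. By complex, the median differences were 2.45 (II), 2.59 (III), 2.52 (IV) and 1.90 (V). Among the called members with the largest differences were Cox7b, a small membrane subunit of complex IV, at 3.26 ± 0.19 (log2 ± SE here and below; adjusted p = 7.92e-20), Cox5a, its matrix-side subunit, at 3.11 ± 0.19, and Sdhb, the iron-sulfur subunit of complex II, at 3.01 ± 0.19. Uqcr10 and Uqcrq, small accessory subunits of complex III, differed by 2.96 ± 0.20 and 2.92 ± 0.21. The catalytic subunits of ATP synthase, Atp5a1 (alpha) and Atp5b (beta), differed by 1.87 ± 0.16 and 1.69 ± 0.15.

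Against scWAT, 40 members were higher in iBAT and 1 was lower, where 44.6% of all genes were called. The median difference was 1.76, against -0.15 over all genes, and the complexes had medians of 2.00 (II), 2.19 (III), 1.74 (IV) and 1.49 (V). The core protein Uqcrc1 of complex III led with 2.56 ± 0.24, followed by Sdhb (2.48 ± 0.19), Cox5a (2.39 ± 0.19), Cox7b (2.37 ± 0.19), Uqcrq (2.34 ± 0.21) and Uqcr10 (2.27 ± 0.20). In Ctrl_RT alone, with its 3 iBAT libraries and replicate 3 among them, 21 members were higher in iBAT than in scWAT. The share of all genes called there is not at hand, so this count cannot be set against it.

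Between the white depots, 27 members were lower in goWAT than in scWAT and 0 were higher, where 18% of all genes were called. The median difference was -0.54, against 0.02 over all genes. The 27 include Cox6a2, which did not pass the filter in goWAT alone and is described below. The other called members with the largest falls were the complex III subunit Uqcrb at -0.91 ± 0.18 and the small complex IV subunits Cox7c (-0.89 ± 0.17) and Cox7b (-0.89 ± 0.18). Cox6c (-0.77 ± 0.16) and Cox6a1 (-0.73 ± 0.17; adjusted p = 0.00214) followed. The catalytic subunit Sdha (-0.08 ± 0.17), Uqcrc1 (-0.03 ± 0.22) and Atp5b (-0.08 ± 0.14) lay near 0. Within single conditions edgeR called fewer genes of any kind. In GC_RT it called 0 of 44 members (2 at an unadjusted p under 0.05; median 0.04), where 2.46% of all genes were called, and in GC_CT 0 (0 at an unadjusted p under 0.05; median -0.07), where 0.737% were called. In Ctrl_RT it called 13 (median -0.90), where 4.33% of all genes were called, and in Ctrl_CT 25 (median -1.02), where 5.58% were called. Cox6a1 was at 0.007 in GC_RT and 0.13 in GC_CT. The counts of the 4 conditions were not tested against each other.

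**Figure D2:**
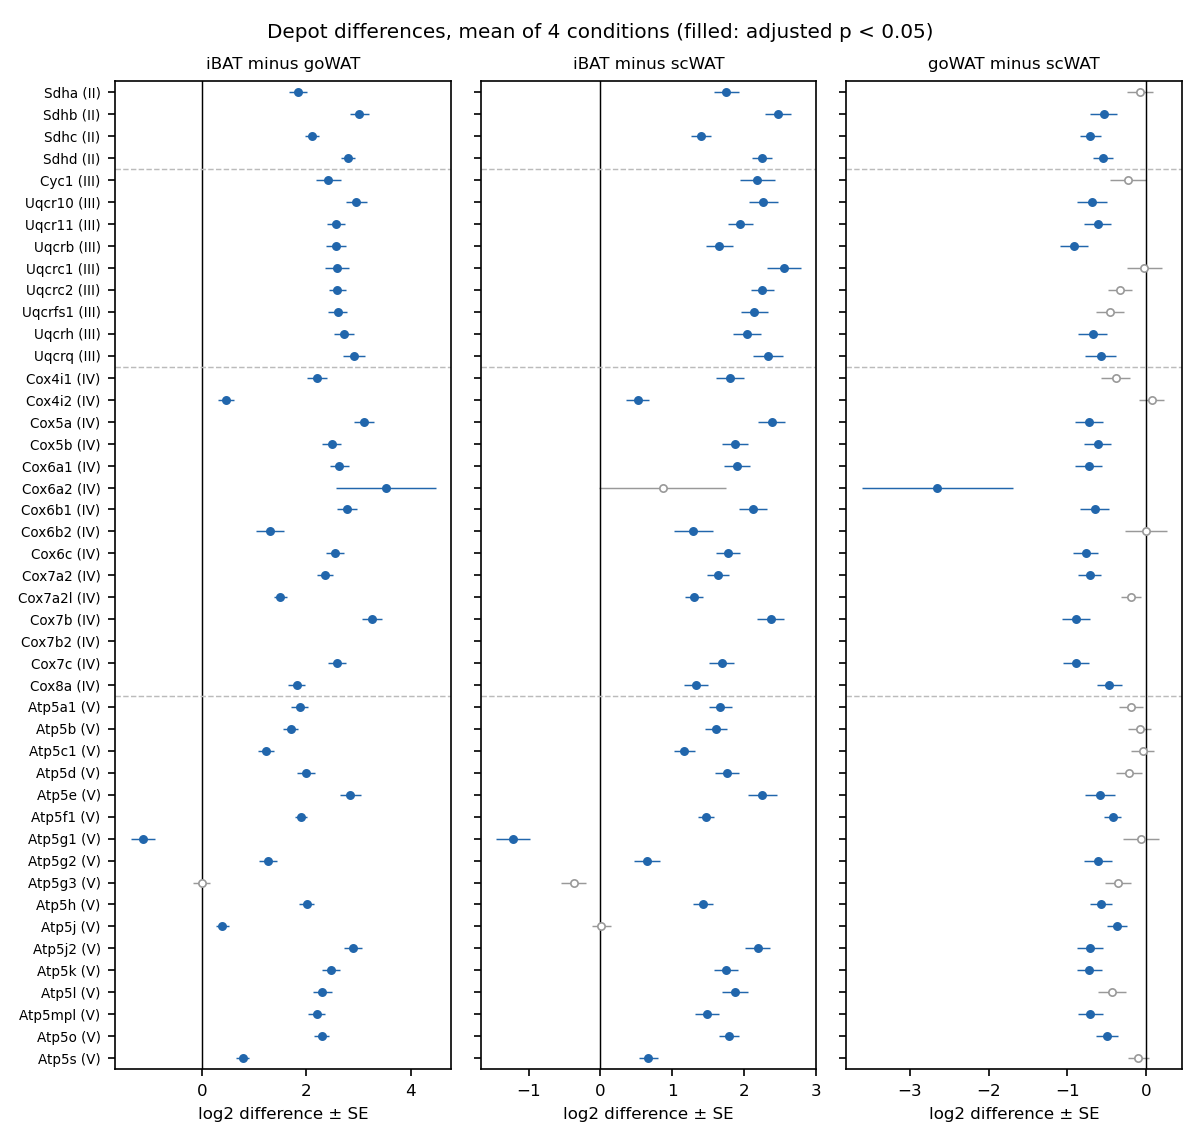
Difference of each member between depots (log2, mean over the 4 conditions, bars ± SE) for iBAT minus goWAT, iBAT minus scWAT and goWAT minus scWAT, grouped by complex; filled points passed an adjusted p of 0.05. The values are positive for 42 of 44 members in either comparison of iBAT, and Atp5g1 lies below 0 in both.

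The 3 genes for subunit c of ATP synthase did not share a direction. Atp5g1 was lower in iBAT than in goWAT by a log2 difference of -1.15 ± 0.24 (adjusted p = 4.67e-05) and lower than in scWAT by -1.22 ± 0.24 (adjusted p = 3.4e-05), and it was the only called member lower in iBAT in either comparison. Its median levels in iBAT were 10.4 CPM in GC_RT, 17.2 in Ctrl_RT, 5.5 in GC_CT and 5.84 in Ctrl_CT. In goWAT they were 26.7 CPM in GC_RT, 17.5 in Ctrl_RT, 16.1 in GC_CT and 19.4 in Ctrl_CT, and in scWAT 33.6, 24.8, 15.2 and 16.2 CPM in the same groups. The difference from goWAT was called within GC_RT (-2.07) and Ctrl_CT (-1.40), and not within Ctrl_RT (-0.28) or GC_CT (-0.84). That from scWAT was called within GC_RT (-2.16), and not within Ctrl_RT (-0.87), Ctrl_CT (-1.05) or GC_CT (-0.79). Of its principal transcript, 66% is shared with other genes. Atp5g3, whose transcript shares no stretch of 50 bases with another gene, differed by -0.02 ± 0.17 from goWAT (adjusted p = 0.948) and by -0.37 ± 0.17 from scWAT (adjusted p = 0.0725). Atp5g2 was higher in iBAT than in goWAT by 1.26 ± 0.18 and than in scWAT by 0.65 ± 0.18. Atp5j, coupling factor 6, was higher in iBAT than in goWAT by 0.38 ± 0.13 and differed from scWAT by 0.01 ± 0.13. Outside the members, Atpif1, the inhibitor of ATP synthase, was lower in iBAT than in goWAT (-0.66, adjusted p = 0.00131) and than in scWAT (-0.61, adjusted p = 0.00398).

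Levels of different genes were compared per kilobase of transcript, in Ctrl_RT libraries. In iBAT the highest medians were those of Cox6a1 (5050 CPM per kb), Uqcrq (4470), Cox8a (4220), Cox4i1 (4100) and Cox6b1 (3810). In goWAT they were Cox8a (2360 CPM per kb), Cox4i1 (2130) and Uqcrq (1700), and in scWAT Cox4i1 (3340), Cox8a (3170) and Uqcrq (3100). Of the genes for subunit c, Atp5g3 had 750 CPM per kb in iBAT, 533 in goWAT and 1020 in scWAT. Atp5g1 had 28.8, 29.3 and 41.5 CPM per kb in these depots, and Atp5g2 had 25.4, 12.1 and 21.3 CPM per kb. Of their principal transcripts 66% (Atp5g1) and 100% (Atp5g2) is shared with other genes, against 0% for Atp5g3. How reads from shared stretches were counted is not known, so the levels of these 3 genes cannot be ranked with certainty. The isoform pairs of complex IV were uneven in all depots. Cox4i2, known from lung, had 11.8 CPM per kb in iBAT, 7.26 in goWAT and 10 in scWAT, and the testis isoform Cox6b2 had 8.63, 3.45 and 4.7, against 3810, 621 and 1850 CPM per kb of the common isoform Cox6b1.

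Cox6a2, the isoform of heart and skeletal muscle, was at 0 to 11.8 CPM in iBAT, with its highest value in GC_CT replicate 4, which also had the highest muscle markers of that depot (1020 CPM). In scWAT it was at 34.0 CPM in GC_RT replicate 2 and 12.4 CPM in Ctrl_RT replicate 1, and at 1.40 CPM or less in the other 16 libraries. Muscle markers in that pair of scWAT libraries summed to 2630 and 652 CPM, the highest of the depot. The log2 difference of Cox6a2 was 3.52 ± 0.96 for iBAT minus goWAT and -2.65 ± 0.96 for goWAT minus scWAT (adjusted p = 0.0473). Without the libraries rich in other tissue these became 2.94 and -1.95, and the second was no longer called (adjusted p = 0.132). That set keeps scWAT Ctrl_RT replicate 1, so these values still hold a muscle-rich library. Cox6a2 passed the filter in the fit of all depots but not in goWAT alone. Both differences therefore rest on iBAT and scWAT libraries where it was high, and both are counted among the calls given above. The part of the muscle content in these differences was not tested.

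Corticosterone went with lower levels of these subunits in subcutaneous fat. At 22 °C, 10 of the 44 tested members fell in scWAT and 0 rose, where 6.93% of all genes were called. The median log2 fold change of the members was -0.79, against 0.06 over all genes, and 41 of the 44 values were negative. Of complex II, 1 of 4 members fell (median -0.81), of complex III 2 of 9 (median -0.99), of complex IV 6 of 14 (median -0.93) and of complex V 1 of 17 (median -0.69).

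Cox5a had 371, 251, 148, 287 and 90.0 CPM in the GC_RT libraries of scWAT, against 374, 879, 498 and 687 CPM in the Ctrl_RT libraries. All GC_RT libraries lay below all Ctrl_RT libraries, though the highest and the lowest nearly met, and the log2 fold change was -1.41 ± 0.32 (adjusted p = 0.00932). Uqcrfs1, the Rieske iron-sulfur protein that takes the first electron from ubiquinol in complex III, had 590, 361, 229, 466 and 231 CPM in GC_RT and 559, 1421, 849 and 1038 CPM in Ctrl_RT. Its groups overlapped in GC_RT replicate 1 and Ctrl_RT replicate 1, and it fell by 1.36 ± 0.33 on the log2 scale (adjusted p = 0.0135). Cox7b had 247, 272, 275, 496 and 211 CPM in GC_RT and 695, 871, 439 and 570 CPM in Ctrl_RT, with GC_RT replicate 4 above the lowest placebo library, and fell by 1.10 ± 0.29 (adjusted p = 0.0259). Sdha, the flavoprotein that oxidises succinate, had 602, 345, 269, 473 and 393 CPM in GC_RT and 614, 1024, 865 and 1022 CPM in Ctrl_RT. Its groups did not overlap, and it fell by 1.08 ± 0.28 (adjusted p = 0.0201).

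The other called members at 22 °C were the complex IV subunits Cox4i1 (-1.22 ± 0.30), the zinc-binding Cox5b (-1.01 ± 0.28), Cox4i2 (-1.13 ± 0.32) and Cox7a2 (-0.93 ± 0.28), with Uqcr10 (-1.24 ± 0.33) and Atp5a1 (-0.87 ± 0.25), at adjusted p-values of 0.0166 to 0.0458. In 8 of the 44 members every GC_RT library lay below every Ctrl_RT library, as in 4.43% of all genes. Without GC_RT replicates 2 and 3, the libraries with the most macrophage markers, 0 members were called by edgeR, and the median was -0.67. Leaving out single libraries gave 0 calls without Ctrl_RT replicate 2, 2 without Ctrl_RT replicate 4, 3, 4 and 5 without GC_RT replicates 3, 2 and 5, and 21 and 23 without GC_RT replicates 4 and 1.

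At 13 °C, 6 of the 44 members fell in scWAT with corticosterone and 0 rose, where 2.59% of all genes were called. The median was -0.82, against 0.01 over all genes, and 43 of 44 values were negative. Of complex II 2 members fell (median -0.94), of complex III 1 (median -0.96), of complex IV 3 (median -0.99) and of complex V 0 of 17 (median -0.67). Cox5a had 290, 281, 298 and 274 CPM in the GC_CT libraries, against 629, 898, 710, 963 and 693 CPM in the Ctrl_CT libraries. The groups lay far apart, and the fold change was -1.45 ± 0.33 (adjusted p = 0.0186). Cox7b had 221, 249, 229 and 137 CPM in GC_CT and 336, 591, 554, 499 and 889 CPM in Ctrl_CT, without overlap, and fell by 1.46 ± 0.31 (adjusted p = 0.0107). Uqcrfs1 had 690, 544, 494 and 408 CPM in GC_CT and 1338, 1651, 1339, 2130 and 807 CPM in Ctrl_CT, again without overlap, and fell by 1.44 ± 0.34 (adjusted p = 0.0225).

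The membrane anchor Sdhd of complex II had 195, 233, 222 and 122 CPM in GC_CT and 324, 356, 540, 432 and 427 CPM in Ctrl_CT, a fall of 1.11 ± 0.26 without overlap (adjusted p = 0.0239). The second anchor, Sdhc, fell by 1.03 ± 0.24 (adjusted p = 0.0237). Cox6a1, the isoform of most tissues, had 890, 632, 705 and 1745 CPM in GC_CT and 1671, 3399, 2331, 2669 and 2603 CPM in Ctrl_CT. Its GC_CT replicate 5 stood above the lowest placebo library, and it fell by 1.35 ± 0.32 (adjusted p = 0.0231). In 14 members every GC_CT library lay below every Ctrl_CT library, as in 4.17% of all genes. Epithelial markers summed to 0.146 to 333 CPM in GC_CT and 0.375 to 88.3 CPM in Ctrl_CT. Without Ctrl_CT replicate 3 and GC_CT replicates 4 and 5, which had the most of them, 0 members were called and the median was -0.82. That fit kept only replicates 1 and 3 of GC_CT. Whether the lost calls go with the epithelial content or with the smaller groups was not tested. Leaving out single libraries gave 10 calls without Ctrl_CT replicate 1, 1 without Ctrl_CT replicate 4 or GC_CT replicate 4, 2 without GC_CT replicate 1 or 5, and 3 without GC_CT replicate 3.

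Cox5a, Cox7b and Uqcrfs1 were called at both temperatures, which is 30% of the 10 members called at 22 °C and 50% of the 6 called at 13 °C. The difference between the temperatures was tested as an interaction, the corticosterone effect at 13 °C minus that at 22 °C. It called 0 members in scWAT (1 at an unadjusted p under 0.05; smallest adjusted p 0.472, for Atp5g2 at -1.11 ± 0.49), and 0% of all genes. DESeq2 and limma also called 0.

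**Figure D3:**
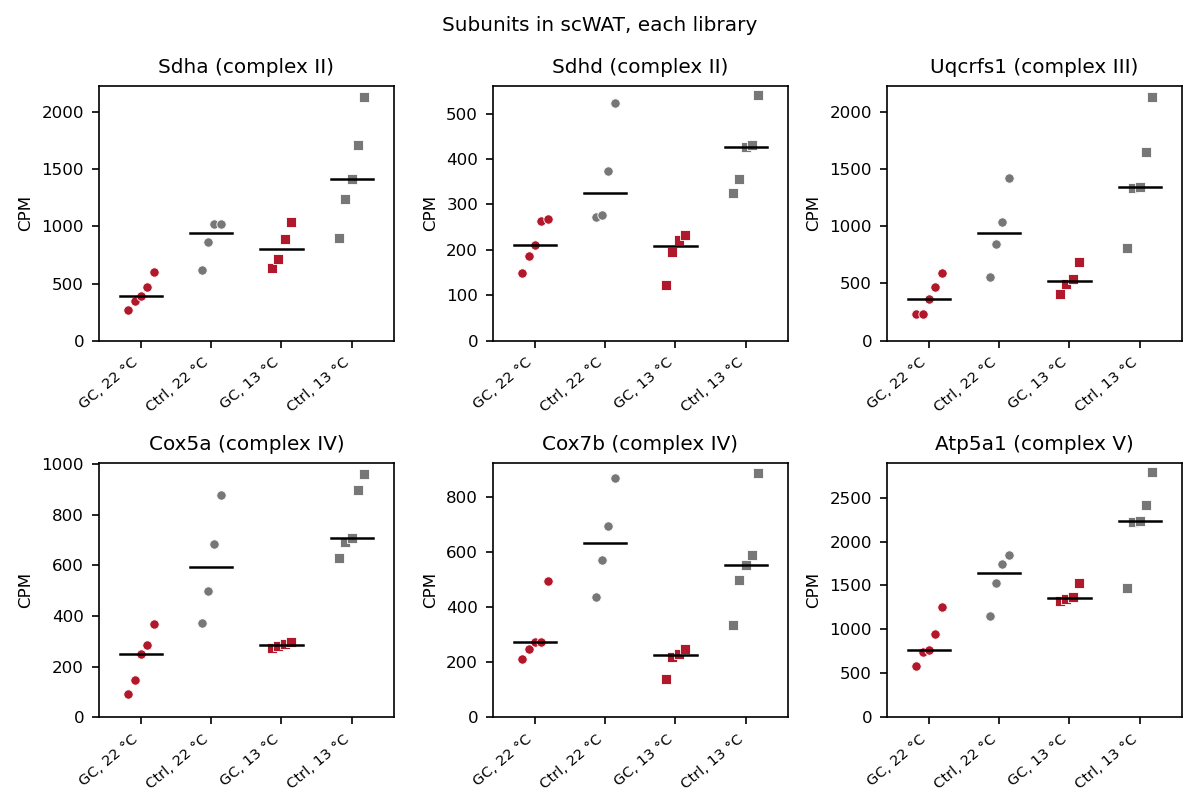
CPM of Sdha, Sdhd, Uqcrfs1, Cox5a, Cox7b and Atp5a1 in each scWAT library, by treatment and temperature; points are libraries and lines group medians. In Cox5a all corticosterone libraries lie below all placebo libraries at either temperature, and in Uqcrfs1 and Cox7b at 13 °C.

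The corticosterone effect was also averaged over both temperatures in the fit of all 55 libraries, a comparison chosen after seeing the data. In scWAT 28 of 44 members then fell and 0 rose, where 8.94% of all genes were called. The median was -0.75, against 0.07 over all genes. All 4 members of complex II fell, 7 of 9 in complex III, 9 of 14 in complex IV and 8 of 17 in complex V. The 28 held all 13 members called at a single temperature. The lowest adjusted p-values were those of Cox5a (-1.41 ± 0.26, adjusted p = 0.000139), Uqcrfs1 (-1.38 ± 0.26, 0.000184), Cox7b (-1.25 ± 0.26, 0.000664) and Sdhd (-0.90 ± 0.19, 0.000679). Among the 15 members added by the average were Sdhb (-0.80, adjusted p = 0.0323), Cyc1, the cytochrome c1 of complex III (-1.02, adjusted p = 0.0437), Atp5b (-0.66, adjusted p = 0.0345) and the stalk subunit Atp5f1 (-0.66, adjusted p = 0.00358). Without the libraries rich in other tissue 22 were called, without replicate 2 of every group 12, and without replicate 5 of every group 14.

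The same average called 0 members in iBAT (2 at an unadjusted p under 0.05; smallest adjusted p 0.117, for Atp5b at 0.58), where 4.7% of all genes were called and the median was 0.07. In goWAT it called 1 of 44, Atp5g3, which rose by 1.07 ± 0.24 (adjusted p = 0.00271), where 5.95% of all genes were called and the median was 0.20. Without the libraries rich in markers of other tissue Atp5g3 was at 0.62 and no longer called (adjusted p = 0.0659). Whether the effect differed between depots was tested directly, with comparisons that share scWAT or goWAT libraries. For iBAT minus scWAT the effect of 12 members differed, all with a higher value in iBAT, where 2.81% of all genes were called, and the median difference was 0.83, against -0.05 over all genes. Uqcrfs1 differed by 1.75 ± 0.37 (adjusted p = 0.00467) and Cox5a by 1.71 ± 0.37 (adjusted p = 0.0057). For goWAT minus scWAT 6 members differed, where 0.629% of all genes were called, and all 44 values were positive with a median of 0.92. Cox5a differed by 1.64 ± 0.36 (adjusted p = 0.0193) and Cox6a1 by 1.59 ± 0.35 (adjusted p = 0.02). For iBAT minus goWAT 0 were called by edgeR (3 at an unadjusted p under 0.05), where 0.787% of all genes were called, and the median was -0.09. Without the libraries rich in other tissue, the counts were 19 for iBAT minus scWAT, 0 for goWAT minus scWAT with a median of 0.80, and 2 for iBAT minus goWAT. Leaving out replicate 2 of every group gave 0 for iBAT minus scWAT, replicate 4 gave 1, and replicates 1 and 5 gave 6 each. For goWAT minus scWAT, leaving out replicate 3 or 4 gave 0, replicate 1 or 2 gave 1, and replicate 5 gave 2.

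**Figure D4:**
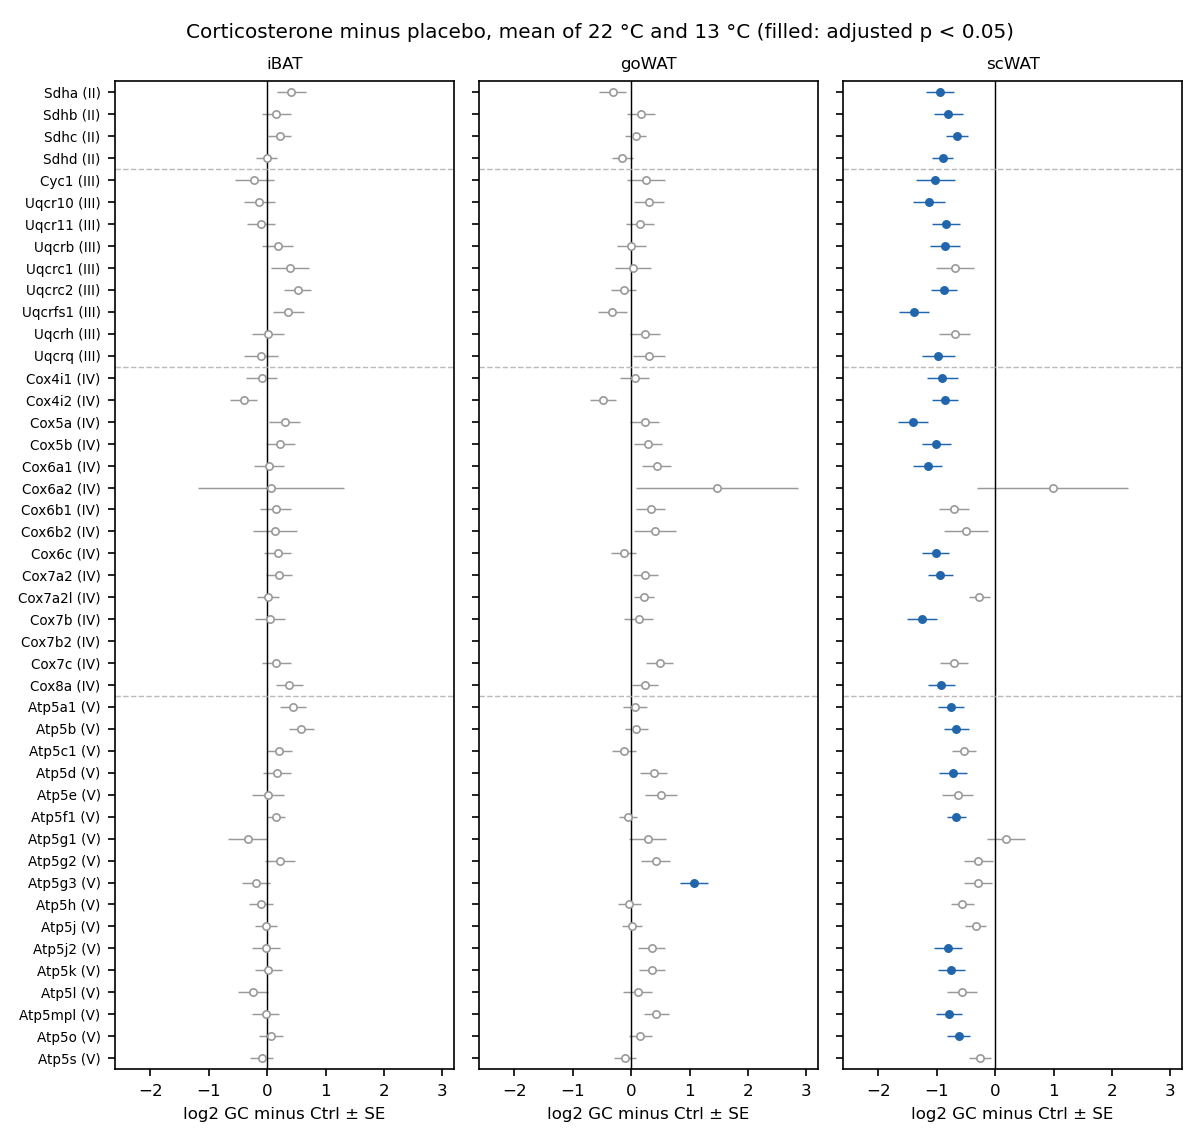
Log2 fold change of each member with corticosterone (GC minus Ctrl, mean of 22 °C and 13 °C, bars ± SE) in iBAT, goWAT and scWAT, grouped by complex; filled points passed an adjusted p of 0.05. In scWAT 42 of 44 values lie below 0 and 28 are filled, while in goWAT 1 (Atp5g3) and in iBAT 0 are filled.

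Other genes moved beside the members in scWAT. The brown fat isoforms Cox7a1 and Cox8b together had 33.5 to 90.6 CPM in GC_RT, against 451 to 1480 CPM in Ctrl_RT, and 56 to 238 CPM in GC_CT, against 395 to 1340 CPM in Ctrl_CT. Cox7a1 fell by 2.43 at 22 °C (adjusted p = 0.006) and by 3.05 at 13 °C (adjusted p = 0.00382), and Cox8b fell by 4.43 and 2.65 (adjusted p = 3.15e-05 and 0.00479). Of the 8 brown adipocyte markers (Ucp1, Cidea, Dio2, Elovl3, Cpt1b, Ppargc1a and this pair), 6 fell at 22 °C (median -4.08) and 4 at 13 °C (median -2.96), and 0 rose. Their sums, on the scale common to the depots, were 63.5 to 171 CPM in GC_RT, against 561 to 2790 CPM in Ctrl_RT, and 118 to 554 CPM in GC_CT, against 877 to 3110 CPM in Ctrl_CT. Ucp1 had medians of 4.61 CPM in GC_RT and 76.8 CPM in Ctrl_RT, and of 28.6 CPM in GC_CT and 261 CPM in Ctrl_CT. Of the 5 white adipocyte markers (Lep, Retn, Nnat, Slc7a10 and Agt) 2 rose at 22 °C and 3 at 13 °C, with 0 falls, and their sums were 4440 to 9320 CPM in GC_RT and 3590 to 5910 CPM in Ctrl_RT, and 6090 to 8620 CPM in GC_CT and 1770 to 3900 CPM in Ctrl_CT. Of 12 macrophage markers 2 rose at 22 °C and 0 at 13 °C, with sums of 738 to 12700 CPM in GC_RT and 644 to 1570 CPM in Ctrl_RT, and of 581 to 761 CPM in GC_CT and 364 to 774 CPM in Ctrl_CT. The part of these cell types in the fall of the members was not tested.

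Of 38 genes taken by their Nduf symbols for nuclear subunits of complex I, 6 fell at 22 °C (median -0.68) and 4 at 13 °C (median -0.75), and 0 rose. This list went by symbol alone, so it may hold genes that are not complex I subunits. Of 35 assembly factors of complexes II to V, 2 fell at 22 °C, Coa5 and Lyrm7 (median -0.33), and 0 at 13 °C (median -0.48; smallest adjusted p 0.0674). Of the 6 mitochondrially encoded subunits of complexes III to V, mt-Co1, the catalytic core of complex IV, fell at 22 °C (-1.22, adjusted p = 0.0452; median of the list -0.61), and 0 were called at 13 °C (median -0.28). Of 12 regulators of mitochondrial biogenesis, the receptor Esrrg fell at 22 °C (-3.54, adjusted p = 0.0117) and the coactivator Pprc1 rose at 13 °C (adjusted p = 0.0372). Cytochrome c (Cycs) had values of -0.89 and -0.98 at 22 °C and 13 °C (adjusted p = 0.0535 and 0.0657), and citrate synthase (Cs), of the matrix, had -0.64 and -0.93 (adjusted p = 0.123 and 0.0517). Of the outer membrane genes Vdac1 and Tomm20, 0 were called at either temperature (medians -0.37 and -0.69). Between depots, of the 38 Nduf genes 37 were higher in iBAT than in goWAT, 37 higher in iBAT than in scWAT and 26 lower in goWAT than in scWAT. Of 36 assembly factors, 36 were higher in iBAT than in goWAT, 35 higher than in scWAT, and 11 lower in goWAT than in scWAT.

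In gonadal fat, 2 of 43 members rose with corticosterone at 22 °C, where 5.98% of all genes were called. The median was 0.17, against 0.05 over all genes. Atp5g3 had 1503, 3440, 1012, 620 and 427 CPM in the GC_RT libraries, against 432, 368, 539 and 393 CPM in the Ctrl_RT libraries. The GC_RT libraries spanned a wide range with replicate 2 highest, replicate 5 lay among the placebo libraries, and the log2 fold change was 1.69 ± 0.42 (adjusted p = 0.018). Cox7c had 69.6, 116, 69.4, 211 and 66.6 CPM in GC_RT and 50.003, 55.3, 51.3 and 37.8 CPM in Ctrl_RT, without overlap, and rose by 1.13 ± 0.31 (adjusted p = 0.0298). Of the mitochondrially encoded subunits 4 of 6 rose (mt-Atp6, mt-Atp8, mt-Co2 and mt-Co3; median 1.82), and mitochondrial transcripts made up 4.53% to 9.87% of counts in GC_RT and 2.00% to 4.48% in Ctrl_RT. Their part in the 2 calls was not tested. The calls rested on few libraries: without GC_RT replicate 2 or without Ctrl_RT replicate 2 or 4 there were 0, without Ctrl_RT replicate 1 or 3 or GC_RT replicate 4 there was 1, and without GC_RT replicate 1 there were 6, of which 3 rose. Without the libraries rich in other tissue there were 5, of which 2 rose, and Atp5g3 was at 0.65 (adjusted p = 0.148). At 13 °C 0 of 43 members were called by edgeR (7 at an unadjusted p under 0.05; 1 by DESeq2 and 7 by limma), where 1.45% of all genes were called. The median was 0.09, and Cox4i2 had the smallest adjusted p (-0.89 ± 0.29, adjusted p = 0.118).

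In brown fat 0 of 44 members were called with corticosterone by edgeR at 22 °C (4 at an unadjusted p under 0.05; 1 by DESeq2 and 3 by limma) and 0 at 13 °C (0 at an unadjusted p under 0.05; 0 by DESeq2 and limma), where 0.664% and 0.728% of all genes were called. The medians were -0.03 and 0.19, against 0.01 and 0.02 over all genes. The median at 22 °C moved with single libraries: it was 0.46 without Ctrl_RT replicate 3, -0.25 without Ctrl_RT replicate 1, -0.26 without Ctrl_RT replicate 2 and -0.28 without GC_RT replicate 3. The core protein Uqcrc2 of complex III had the smallest adjusted p at 22 °C (0.83 ± 0.27, adjusted p = 0.196) and Atp5g2 at 13 °C (0.75 ± 0.40, adjusted p = 0.561). Cox5a had 1490, 1110, 2700, 1300 and 1190 CPM in the GC_RT libraries of iBAT, against 677, 684 and 2770 CPM in the Ctrl_RT libraries. Its groups overlapped through Ctrl_RT replicate 3, the library with the high sum. At 13 °C Cox5a had 1600, 1210, 1890, 2910 and 2530 CPM in GC_CT and 1050, 1560, 1800, 1390 and 2020 CPM in Ctrl_CT, with much overlap. Whether the corticosterone effect differed among the 3 depots at 22 °C was called for 1 of 44 members, Atp5g3 (adjusted p = 0.0319), where 0.742% of all genes were called, and at 13 °C for 0 (22 at an unadjusted p under 0.05; 4 by DESeq2; smallest adjusted p 0.0722), where 0.234% were called. The call of Atp5g3 was lost without the libraries rich in other tissue (adjusted p = 0.241) and without replicate 1, 2, 3 or 4 of every group.

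Housing at 13 °C with placebo called 0 members in each depot by edgeR. In iBAT 5 had an unadjusted p under 0.05 (0 by DESeq2 and 9 by limma, all higher), the median was 0.14 and 0.0175% of all genes were called. In goWAT 2 had an unadjusted p under 0.05 (0 by DESeq2 and limma), the median was -0.15 and 0.312% of all genes were called. In scWAT 6 had an unadjusted p under 0.05 (0 by DESeq2 and 1 by limma), the median was -0.05 and 0% of all genes were called. The iBAT median was 0.74 without Ctrl_RT replicate 3, and -0.08 and -0.13 without Ctrl_RT replicates 1 and 2. The smallest adjusted p-values were 0.436 for Uqcrb in iBAT (0.88 ± 0.34), 0.62 in goWAT and 0.31 for Sdha in scWAT (0.75 ± 0.28).

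With corticosterone, housing at 13 °C against 22 °C called 4 of 44 members in scWAT, where 8.18% of all genes were called. Sdha had 891, 1042, 711 and 639 CPM in GC_CT, against 602, 345, 269, 473 and 393 CPM in GC_RT, without overlap, and rose by 0.98 ± 0.28 (adjusted p = 0.0347). Uqcrc1 had 894, 911, 810 and 734 CPM in GC_CT and 709, 390, 191, 254 and 213 CPM in GC_RT, also without overlap, and rose by 1.25 ± 0.36 (adjusted p = 0.0358). Atp5g1 had 21.5, 13.6, 15.8 and 18.0 CPM in GC_CT and 35.2, 45.6, 36.7, 42.8 and 24.9 CPM in GC_RT and fell by 1.10 ± 0.29 (adjusted p = 0.0288). Atp5g2 had 5.16, 4.74, 7.26 and 6.63 CPM in GC_CT and 9.59, 10.9, 10.5, 13.0 and 20.8 CPM in GC_RT and fell by 1.12 ± 0.35 (adjusted p = 0.0492). The groups did not overlap in either gene, though much of both transcripts is shared with other genes. Without GC_RT replicates 2 and 3 there were 0 calls. Leaving out single libraries gave 10 calls without GC_RT replicate 1, 0 without GC_RT replicate 3 or GC_CT replicate 3 or 4, 1 without GC_RT replicate 2 or GC_CT replicate 1, and 2 without GC_RT replicate 4 or 5 or GC_CT replicate 5. The inhibitor Atpif1 fell in the same comparison (-1.48, adjusted p = 0.0244), and Esrrg and Nrf1 of the regulators rose.

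In iBAT the same comparison called 0 of 44 members by edgeR (8 at an unadjusted p under 0.05; 0 by DESeq2 and limma), where 0.00583% of all genes were called. There 35 of 44 values were positive with a median of 0.42, against -0.03 over all genes, and Atp5mpl, a small membrane subunit of ATP synthase, had the smallest adjusted p (0.87 ± 0.29, adjusted p = 0.183). In goWAT 0 of 43 were called (15 at an unadjusted p under 0.05; 4 by DESeq2, all lower, and 0 by limma), where 0.0149% of all genes were called, and Atp5g3 had -1.50 ± 0.38 (adjusted p = 0.112). Without GC_RT replicate 1 there were 4 calls in goWAT, and without GC_RT replicate 5 there was 1. The interaction called 0 members in iBAT (3 at an unadjusted p under 0.05; smallest adjusted p 0.769) and 0 in goWAT (8 at an unadjusted p under 0.05; smallest adjusted p 0.188, for Atp5g1 at -1.28 ± 0.42), and DESeq2 and limma called 0 in both. Over all genes it called 0% in iBAT and 0.461% in goWAT.

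How far short and long members moved together differed between comparisons. The members' principal transcripts fell into 23 under 800 bases and 13 of at least 1100 bases, with Cox6a2 left out. For corticosterone in scWAT the medians of short and long members were alike, at -0.80 and -0.87 at 22 °C and -0.87 and -0.77 at 13 °C. For 13 °C against 22 °C with corticosterone in iBAT they were 0.59 and -0.05, and Spearman's rho between fold change and length was -0.71 over 43 members, against -0.10 over all genes. For corticosterone at 22 °C in goWAT they were 0.49 and -0.19, with rho at -0.63 over the members and -0.09 over all genes. For 13 °C against 22 °C in scWAT they were -0.22 and 0.44 with placebo (rho 0.62) and -0.32 and 0.51 with corticosterone (rho 0.54), against rho of -0.02 and 0.02 over all genes. These values describe genes of the same libraries, which are not independent.

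**Figure D5:**
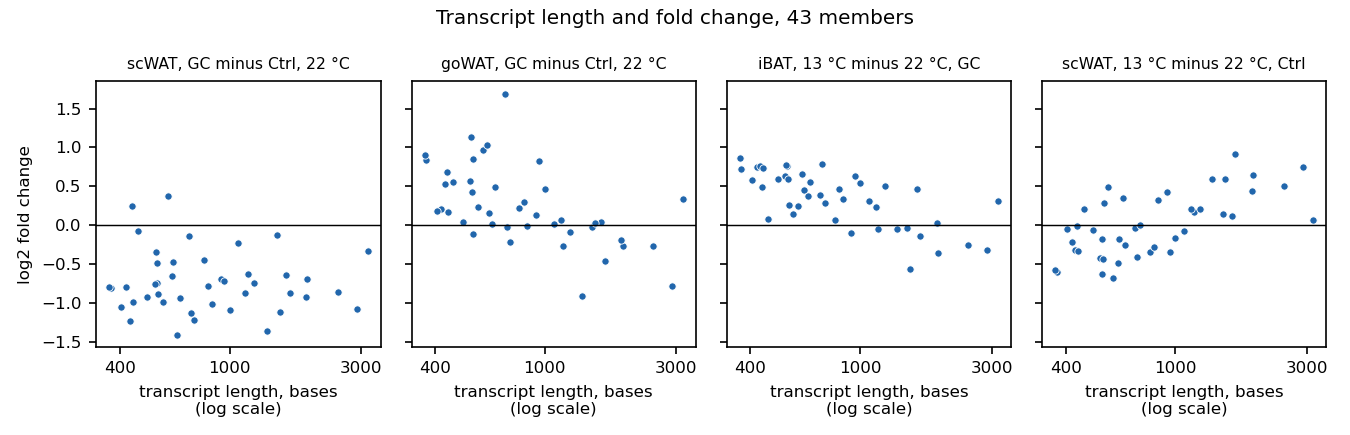
Log2 fold change of 43 members (Cox6a2 and Cox7b2 left out) against the length of the principal transcript in bases (log axis), 1 point per member, in 4 comparisons. For corticosterone at 22 °C in scWAT the points show no slope (rho -0.02), they fall with length in goWAT (rho -0.63) and for 13 °C with corticosterone in iBAT (rho -0.71), and they rise with length for 13 °C with placebo in scWAT (rho 0.62).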

How the data were processed

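RNA-seq of 55 libraries in 12 groups was analysed from the deposited tables, 1 per depot, of raw read counts per gene. The submitters' processing notes name FastQC, the aligner GSNAP, the build mm10 and featureCounts 1.6.3. Not given in the sources used here are the annotation release, whether strand was used and how multi-mapping reads were handled. SMART-Seq2 marks no strand, so overlapping genes cannot be told apart. Every one of the 55 columns was used, no 2 libraries held identical counts, and 31894 of 31933 gene IDs had a symbol in the mouse GENCODE annotation of GRCm38. The rule matched 47 protein-coding genes, of which Cox8c and a second ID of Atp5o had no row, and 8 pseudogenes were left out.

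Groups came from the titles. The filter filterByExpr of edgeR 4.0.16 (R 4.3.3; minimum count 10, minimum total 15) kept 17163 genes of iBAT, 20175 of goWAT, 19003 of scWAT and 22245 in the fit of all depots. Counts were scaled by TMM and fitted with the robust quasi-likelihood method, 1 mean per group, with p-values adjusted by Benjamini-Hochberg over all genes and calls at 0.05. The biological coefficient of variation was 50.5%, 50%, 47.8% and 53% in these fits. Standard errors come from the F statistic, CPM use TMM library sizes, and CPM per kb divide by the principal transcript's length. The code was tested on simulated data.

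Genes with values in the text are members called in a comparison within a depot or with its smallest adjusted p, the 6 largest rises and falls per depot difference, and a set of core subunits and isoforms. The members, lists and rule were chosen with earlier results of these data known. The average over temperatures, and fits without goWAT GC_RT replicates 2 and 4 or without 3 scWAT libraries with epithelial markers, were chosen after seeing the data. Alternatives were DESeq2 1.42.0, limma 3.58.1 (voom with library weights), RLE factors, no filter, no mitochondrial genes, a replicate block, only the 2 groups compared, and libraries left out. The libraries called rich in other tissue are iBAT Ctrl_RT 3, Ctrl_CT 4 and GC_CT 4, goWAT GC_RT 1, GC_RT 2 and GC_CT 1, and scWAT GC_RT 2 and GC_RT 3.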

Additional observations from a re-analysis of the deposited data

Results flagged for a closer look

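In groups of 4 or 5 libraries, the gap to the nearest other library was set against the group's range. It was large in 10 of 99 groups of values checked. Chance gives about 1 in 20 for independent, normally distributed values. The 99 are not independent, because they come from the same libraries and the summed levels hold the single genes. The count of 10 therefore cannot be set against that rate. In goWAT, GC_CT replicate 1, which also had the highest brown adipocyte markers of that depot, had a summed level of 27600 CPM (next 17300), Cox5a at 517 CPM (next 264) and Uqcrfs1 at 1190 CPM (next 472). In the same depot GC_RT replicate 4 had Cox7b at 715 CPM (next 191) and GC_RT replicate 1 had Uqcrc1 at 1220 CPM (next 447). In iBAT, GC_RT replicate 3 had a summed level of 121000 CPM (next 77700), Cox4i1 at 8010 CPM (next 3990) and Cox5a at 2700 CPM (next 1490), and Ctrl_CT replicate 3 had Uqcrc1 at 5650 CPM (next 3000). In scWAT, GC_RT replicate 4 had Cox7b at 496 CPM (next 275).

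The corticosterone effect was called as different between depots in these members, by edgeR's quasi-likelihood test. At 22 °C the test among all 3 depots called Atp5g3 (adjusted p = 0.0319), where 0.742% of all genes were called. This call was lost without the libraries rich in other tissue. For the average of both temperatures, the log2 effect in iBAT minus that in scWAT was 1.75 for Uqcrfs1, 1.71 for Cox5a, 1.39 for Uqcrc2, 1.24 for Atp5b, 1.3 for Cox8a, 1.36 for Sdha, 1.19 for Atp5a1, 1.2 for Cox6c, 1.14 for Cox7a2, 0.82 for Atp5f1, 1.3 for Cox7b and 1.23 for Cox5b. The effect in goWAT minus that in scWAT was 1.64 for Cox5a, 1.59 for Cox6a1, 1.36 for Atp5g3, 1.18 for Cox7a2, 1.22 for Atp5mpl and 1.38 for Cox7b. Of all genes, 2.81% were called for iBAT minus scWAT and 0.629% for goWAT minus scWAT. Without replicate 2 of every group, 0 members were called for iBAT minus scWAT. Without the libraries rich in other tissue, 19 were called for iBAT minus scWAT and 0 for goWAT minus scWAT.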

How the results depend on the processing

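Of 413 recomputed counts of called members, 326 stayed within 1.5 times the reported count. A reported count of 0 that stayed 0 was taken as unmoved, and many of the 326 are of this kind. A turn round was looked for only where more of the reported calls were falls than rises, and none was found. Reported counts of 0 and counts made mostly of rises could not turn round by this rule. For corticosterone in scWAT, 5 of 18 counts stayed at 22 °C and 9 of 18 at 13 °C. In goWAT at 22 °C 8 of 18 stayed, and for cold with corticosterone in scWAT 4 of 18. The depot differences moved less, with 15 of 15 for iBAT minus goWAT and 12 of 15 for goWAT minus scWAT. Of 1235 recomputed values of named members, 943 kept direction and call, 281 lost the call, 9 gained it and 2 turned round: Cox6a1 for goWAT minus scWAT was 0.007 within GC_RT and 0.125 within GC_CT. DESeq2 called 20 members for corticosterone in scWAT at 22 °C, 18 at 13 °C, 1 in iBAT at 22 °C, 1 in goWAT at 13 °C, 4 in goWAT for cold with corticosterone, and 5 and 4 for the effect between depots at 22 °C and 13 °C. Limma with library weights called 28 and 23 in scWAT with corticosterone, 3 in iBAT with corticosterone at 22 °C, 9 in iBAT and 1 in scWAT for cold with placebo, 7 in goWAT with corticosterone at 13 °C, and 8 in scWAT for cold with corticosterone. Fitting only the 2 groups compared gave 0 in scWAT and 0 in goWAT with corticosterone at 22 °C, and 1 in scWAT for cold with corticosterone. RLE factors gave 1 for the corticosterone effect in iBAT minus goWAT. The shares of all genes called in these other settings are not given here, and the edgeR shares above do not apply to them. It is therefore not shown whether a higher count is particular to the members.

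Without the libraries rich in other tissue, the counts were 0 in scWAT and 5 in goWAT with corticosterone at 22 °C, 0 in scWAT for cold with corticosterone, 6 for the effect between depots at 22 °C, and 2 in iBAT and 2 in goWAT for the average. For the averaged corticosterone effect compared between depots, they were 2, 19 and 0 for iBAT minus goWAT, iBAT minus scWAT and goWAT minus scWAT. Without the goWAT libraries of low quality there was 1 call at 22 °C and 1 at 13 °C, and without the scWAT libraries with epithelial markers 6, 0 and 0 for corticosterone at 22 °C and 13 °C and for cold. For the depot differences within Ctrl_RT, 21 members differed for iBAT minus scWAT, with no share over all genes at hand, and 13 for goWAT minus scWAT. For goWAT minus scWAT 0 differed within GC_RT and within GC_CT. Leaving out 1 library or replicate number gave 0 to 6 in goWAT and 0 to 23 in scWAT with corticosterone at 22 °C, 1 to 10 in scWAT at 13 °C, 0 to 4 in goWAT and 0 to 10 in scWAT for cold with corticosterone, 0 to 1 for the effect between depots at 22 °C, and 1 to 2 in goWAT and 12 to 29 in scWAT for the average. For the averaged corticosterone effect in iBAT and in goWAT minus that in scWAT, it gave 0 to 18 and 0 to 2. DESeq2's scaling put the median of all genes at 0.19 for corticosterone in goWAT at 22 °C and at -0.22 for the interaction there. Shares of all genes are not given for the fits with libraries left out either. The cause of these changes was not tested.

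In 0 of 24 pairs of groups was every correlation of same-numbered libraries over 0.1, and 38 of 103 library pairs were. Between depots this ranged from 0 of 3 library pairs (iBAT and goWAT, Ctrl_RT) to 4 of 5 (iBAT and goWAT, GC_RT). Some pairs of groups are different treatments of 1 depot, and single noisy pairs can fail the rule. It therefore cannot show whether depots share animals, and the fit of all depots treats their libraries as independent. A replicate block gave 4 members in scWAT with corticosterone at 22 °C and 4 at 13 °C, 0 in scWAT for cold with corticosterone, and 0 for the effect between depots at 22 °C. For the averaged corticosterone effect in goWAT minus that in scWAT it gave 2. With a biological coefficient of variation near 50%, a missing call does not show that a member stayed the same.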
